A study of Mus musculus with 6 samples.

Results

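The genes described here are 10 genes of the transforming growth factor-β (TGF-beta) pathway, chosen by name from the 16448 genes of an RNA-seq table of adult mouse cardiomyocytes (CMs). They are the ligands Tgfb1, Tgfb2 and Tgfb3, the latent binding protein Ltbp1, the receptors Tgfbr1, Tgfbr2 and Tgfbr3, and the signal transducers Smad2, Smad3 and Smad7. All 10 were listed, and all 10 reached 10 or more in 3 or more samples, as required for testing. CMs were examined in 3 Cpt1bcKO mice, which carried αMHC-Cre and floxed Cpt1b alleles, and in 3 CtrlCre mice, which carried the same Cre with wild-type Cpt1b, on a C57BL/6 background and at an age of 8 to 12 weeks. Cpt1b encodes the muscle form of carnitine palmitoyltransferase 1, which lets long-chain fatty acids enter mitochondria. The αMHC (Myh6) promoter drives Cre in CMs from embryonic stages on, so that the deletion was present before adulthood and both groups expressed Cre. CMs were obtained by enzymatic perfusion of the heart and low-speed centrifugation of ventricular cells, without a sort, and cells other than CMs could remain. The comparison asks how expression in CMs differs when Cpt1b has been lost.

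TGF-beta ligands are secreted as latent complexes, in which the propeptide is bound to a latent TGF-beta binding protein that anchors the complex in the extracellular matrix. The freed ligand assembles the type II receptor TGFBR2 with the type I receptor TGFBR1, and the co-receptor TGFBR3 (betaglycan) presents ligand, TGF-beta 2 in particular, to this pair. The activated type I receptor phosphorylates SMAD2 and SMAD3, which enter the nucleus with SMAD4, whereas SMAD7 is induced by the pathway and inhibits it. In the heart the pathway is known for its role in valve and septum formation and in fibrosis.

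Values are read counts that were divided by a size factor of the sample and then rounded, here called normalized counts. They summed to between 13393411 and 31722217 per sample. When mitochondrial-encoded and rRNA genes were left out, they summed to 3438589 to 3551692 in CtrlCre and 3146414 to 3315777 in Cpt1bcKO samples, without overlap. The mitochondrial rRNA gene mt-Rnr2 held 63.2% to 64.6% of the sum in CtrlCre samples and 61.8%, 72.6% and 80.8% in Cpt1bcKO samples 1, 2 and 3. The targeted gene, Cpt1b, had 1861, 893 and 1443 normalized counts in CtrlCre samples 1, 2 and 3 and 211, 353 and 285 in Cpt1bcKO samples 1, 2 and 3, so that the groups did not overlap (log2 fold change −2.27, SE 0.267, adjusted P = 0.00338, limma). The moderated test of limma was applied to log2(value + 1), with Benjamini–Hochberg adjustment over 11364 genes. At an adjusted P below 0.05, 178 genes (1.57%) were called, of which 75 (0.66%) were higher and 103 (0.906%) lower in Cpt1bcKO CMs. Leaving out 1 sample at a time gave between 40 calls (without Cpt1bcKO sample 2) and 305 calls (without Cpt1bcKO sample 1). When samples were scaled to the total without mitochondrial and rRNA genes, the split was 103 higher and 74 lower, and the median over all genes moved from −0.0013 to 0.11 on the log2 scale. All 9 CM markers were listed, the lowest value being 3492 normalized counts (Pln), and their sum ranged from 516616 to 621398 in CtrlCre and from 327420 to 559126 in Cpt1bcKO samples.

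Among the 10 TGF-beta genes, the co-receptor gene Tgfbr3 and the latent binding protein gene Ltbp1 fell to about 50% of the control level in Cpt1bcKO CMs, and the ligands, both signalling receptors and the SMADs did not pass the test. Thus 2 of the 10 genes were called lower, against 0.906% of all genes tested, and 0 were called higher. With 1 prior variance for all genes in limma neither was called (adjusted P = 0.0698 for Tgfbr3 and 0.091 for Ltbp1), and neither was called without Cpt1bcKO sample 2. At an unadjusted P below 0.05 the count was the same 2 genes, against 13.9% of all genes tested. The samples of both groups did not overlap for 3 of the 10 genes, Tgfbr3, Ltbp1 and Smad2, each lower in Cpt1bcKO, against 9.6% of all genes in that direction. The median log2 fold change was −0.13 over the 10 genes and −0.0013 over all genes tested. The 10 genes were chosen with earlier results of these data known, so that these comparisons with all genes are descriptions.

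**Figure D1:**
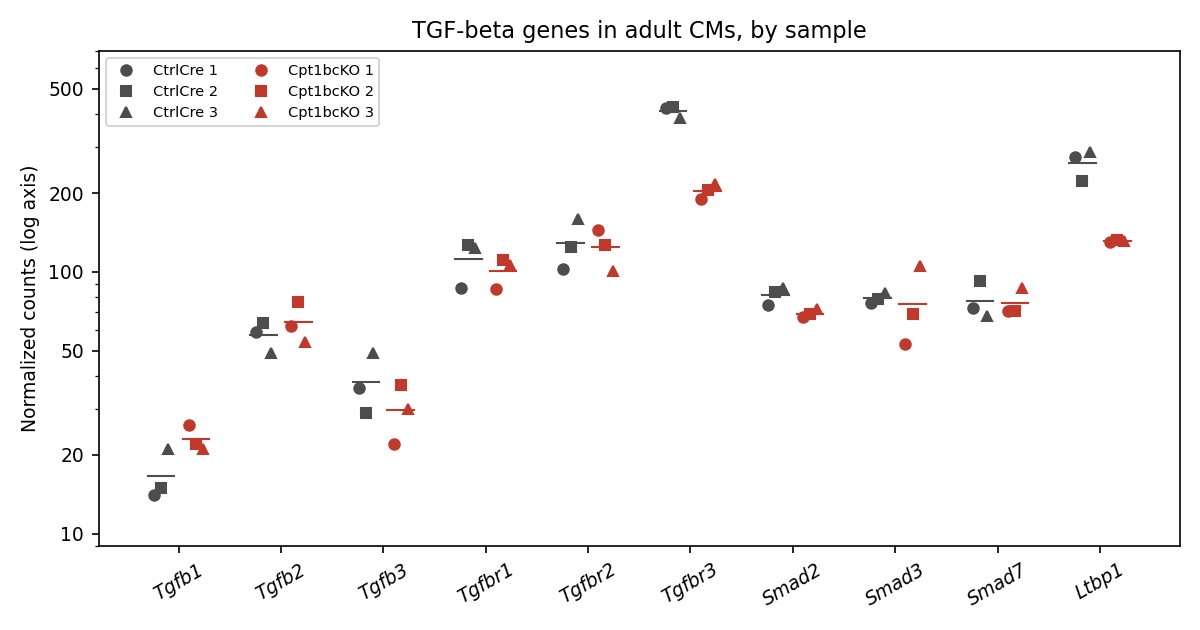
Normalized counts (log axis) of the 10 TGF-beta genes in each sample, with CtrlCre in grey, Cpt1bcKO in red, symbols for the sample number and horizontal lines at the group means. For Tgfbr3, all CtrlCre samples lie at 388 or above and all Cpt1bcKO samples at 217 or below, and for Ltbp1 the limits are 222 and 132.

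Tgfbr3 lies on chromosome 5 (107106570 to 107289629, minus strand, GRCm38). Its normalized counts were 422, 428 and 388 in CtrlCre samples 1, 2 and 3 and 190, 206 and 217 in Cpt1bcKO samples 1, 2 and 3. Every Cpt1bcKO sample was thus below every CtrlCre sample, and within each group the samples lay close together. The mean was 412.7 ± 21.6 in CtrlCre and 204.3 ± 13.6 in Cpt1bcKO CMs (SD, n = 3 each), and the fitted ratio was 49.6% of the control. The log2 fold change was −1.01 (SE 0.146, 95% interval −1.34 to −0.69, adjusted P = 0.00941, limma), which placed the gene at rank 41 of all genes tested. The adjusted P was 0.054 without CtrlCre sample 2 and 0.0609 without Cpt1bcKO sample 2, with log2 fold changes of −0.98 and −1.02. RNA of a whole preparation cannot tell fewer cells of a type from less RNA per cell. Gm43422, an annotated gene of unknown coding status on the same strand, shares 297 exon bases with Tgfbr3 in GENCODE vM21 and had 4 to 21 normalized counts, far below those of Tgfbr3.

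Ltbp1 lies on chromosome 17 (75005568 to 75391767, plus strand). The gene had 276, 222 and 286 normalized counts in the CtrlCre samples and 130, 132 and 131 in the Cpt1bcKO samples. The Cpt1bcKO samples were all lower and nearly identical, and the spread lay almost wholly among the controls. With 3 samples in each group, whether the spread differs between the groups was not tested. The mean was 261.3 ± 34.4 in CtrlCre and 131.0 ± 1.0 in Cpt1bcKO CMs (SD, n = 3 each), and the fitted ratio was 50.6% of the control. The log2 fold change was −0.98 (SE 0.166, 95% interval −1.35 to −0.61, adjusted P = 0.0176, limma), at rank 83. The adjusted P rose to 0.0643 without CtrlCre sample 1, to 0.098 without CtrlCre sample 3 and to 0.0963 without Cpt1bcKO sample 2, with log2 fold changes of −0.94, −0.91 and −0.99.

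Ltbp1 is transcribed from more than 1 start, and the 250 bases before 2 of its RefSeq starts (GRCm38.p6, plus strand) are shown because Ltbp1 is the called gene for which these windows were at hand. The starts lie 173252 bases apart, and neither window holds exon bases of an annotated gene. The first window is chr17:75005279-75005528 (56.8% GC) and the second is chr17:75178531-75178780 (50.8% GC). Capitals mark the SMAD-binding letters CAGAC or their reverse complement GTCTG, and the GC-rich SMAD letters GGCGC or GCGCC.
Ltbp1 first start: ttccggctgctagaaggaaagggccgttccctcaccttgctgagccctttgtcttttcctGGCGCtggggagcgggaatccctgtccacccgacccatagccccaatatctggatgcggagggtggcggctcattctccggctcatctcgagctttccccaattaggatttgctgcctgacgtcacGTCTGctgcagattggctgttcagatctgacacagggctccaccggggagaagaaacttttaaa
Ltbp1 second start: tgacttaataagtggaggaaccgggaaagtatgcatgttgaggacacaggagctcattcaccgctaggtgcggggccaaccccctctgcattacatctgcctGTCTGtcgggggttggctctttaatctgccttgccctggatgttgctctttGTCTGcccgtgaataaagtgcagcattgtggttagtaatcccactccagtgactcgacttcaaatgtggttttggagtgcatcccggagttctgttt
The first window holds 1 match to CAGAC or GTCTG and 1 to GGCGC or GCGCC, and the second holds 2 matches to CAGAC or GTCTG and none of the GC-rich letters. Among 32851 RefSeq windows of the same length, 42.2% hold CAGAC or GTCTG, 32.0% hold GGCGC or GCGCC and 0.167% hold the palindrome GTCTAGAC, which is absent from both Ltbp1 windows. Such letters are frequent, and a match is a description of the sequence and not of binding. The deposited values are summed per gene, so that the reads of the 2 starts were not separated.

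The 3 ligand genes had the lowest mean normalized counts of the 10 genes in both groups and did not pass the test. Tgfb1 (chromosome 7, 25687002 to 25705077, plus strand) had 14, 15 and 21 normalized counts in the CtrlCre samples and 26, 22 and 21 in the Cpt1bcKO samples, with the lowest Cpt1bcKO sample equal to the highest control. Its log2 fold change was 0.46 (SE 0.33, 95% interval −0.27 to 1.19, adjusted P = 0.582, limma). Tgfb2 (chromosome 1, 186622792 to 186705989, minus strand) had 59, 64 and 49 in CtrlCre and 62, 77 and 54 in Cpt1bcKO samples. These ranges overlapped (log2 fold change 0.16, 95% interval −0.35 to 0.67, adjusted P = 0.807). Tgfb3 (chromosome 12, 86056745 to 86079041, minus strand) had 36, 29 and 49 in CtrlCre and 22, 37 and 30 in Cpt1bcKO samples and also overlapped (log2 fold change −0.34, 95% interval −1.03 to 0.34, adjusted P = 0.671). The intervals of Tgfb1 and Tgfb3 are wide enough to hold changes of the size seen for Tgfbr3, in the positive direction for Tgfb1 and in the negative direction for Tgfb3. A single read stood for 0.682 to 1.29 normalized counts in 4 samples and could not be resolved in the other 2, so that the Tgfb1 values rest on few reads. Ttll5, a tubulin polyglutamylase gene on the opposite strand, overlaps Tgfb3 without shared exon bases and had 130 to 175 normalized counts. Gm26169, a small nucleolar RNA gene, and Gm8145, a pseudogene, lie opposite Tgfb2 and Tgfbr3 without shared exon bases. Gm29491 shares 124 exon bases with Tgfb2, and Gm37804 and Gm48008 share 163 and 257 exon bases with Tgfb3, all on the opposite strand. The use of strand in counting is not given in the sources used here, so that reads of these overlaps cannot be assigned with certainty.

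The signalling receptors had similar levels in both groups, with differences smaller than the spread between samples. Tgfbr1 (chromosome 4, 47353222 to 47414931, plus strand), the type I receptor gene, had 87, 127 and 123 normalized counts in CtrlCre and 86, 111 and 106 in Cpt1bcKO samples. Its log2 fold change was −0.14 (95% interval −0.61 to 0.33, adjusted P = 0.816, limma), and sample 1 was the lowest in both groups. Tgfbr2 (chromosome 9, 116084293 to 116175360, minus strand), the type II receptor gene, had 103, 124 and 159 in CtrlCre and 145, 127 and 101 in Cpt1bcKO samples. Its log2 fold change was −0.042 (95% interval −0.53 to 0.44, adjusted P = 0.957), and its direction turned in 3 of 15 alternative settings. The intervals of Tgfbr1 and Tgfbr2 do not reach the log2 fold change of −1.01 of Tgfbr3.

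The SMAD genes did not pass the test either. Smad2 had 75, 84 and 87 normalized counts in CtrlCre and 67, 69 and 72 in Cpt1bcKO samples. Every Cpt1bcKO sample was below every control, but the difference was small (84.9% of the control, log2 fold change −0.24, 95% interval −0.66 to 0.19, adjusted P = 0.63, limma). Smad3 (chromosome 9, 63646767 to 63757994, minus strand) had 76, 79 and 83 in CtrlCre and 53, 69 and 105 in Cpt1bcKO samples, so that the Cpt1bcKO samples lay on both sides of the narrow control range. Its log2 fold change was −0.12 (95% interval −0.69 to 0.45, adjusted P = 0.873). Smad7, the inhibitory SMAD gene, had 73, 92 and 68 in CtrlCre and 71, 71 and 87 in Cpt1bcKO samples. Its log2 fold change was −0.019 (95% interval −0.49 to 0.45, adjusted P = 0.98), and the ranges overlapped almost fully.

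**Figure D2:**
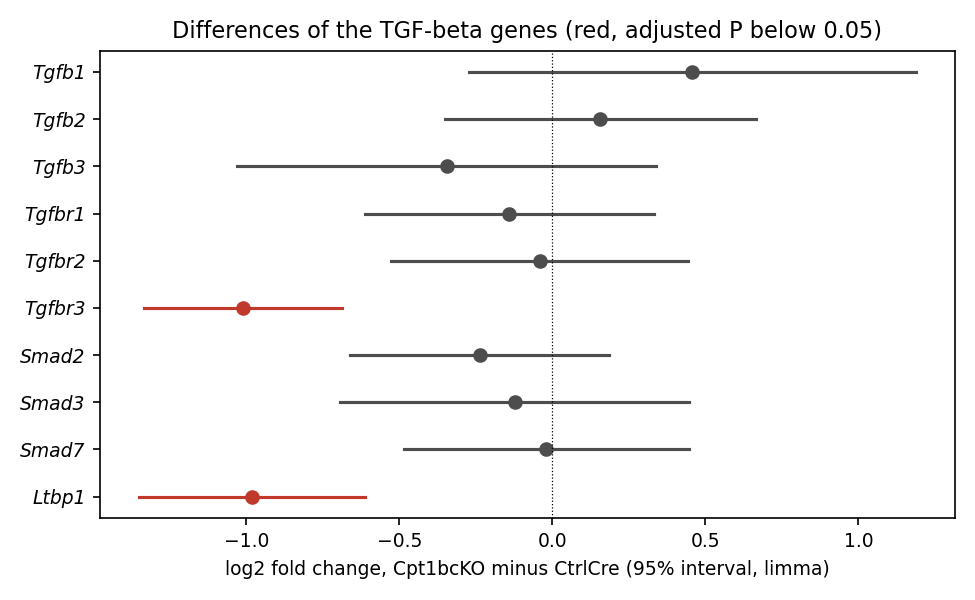
Log2 fold change of each TGF-beta gene, Cpt1bcKO minus CtrlCre, with its 95% interval from limma (n = 3 samples each), in red for an adjusted P below 0.05. Only the intervals of Tgfbr3 (−1.34 to −0.69) and Ltbp1 (−1.35 to −0.61) lie wholly below 0, and the other 8 intervals include it.

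To compare levels between genes, normalized counts were divided by the exon length of each gene in kb (GENCODE vM21). In CtrlCre CMs, Tgfbr3 had the highest level per kb (63.1 ± 3.3, SD, n = 3), above Ltbp1 (24.4 ± 3.2), with no overlap of samples. Then followed Tgfbr1 (17.2), Smad7 (17.2), Tgfbr2 (15.7), Smad3 (14.3), Tgfb3 (11.2), Tgfb2 (9.9) and Smad2 (9.34), each overlapping its neighbour in this order. Tgfb1 was the lowest (3.31), below all samples of Smad2. In Cpt1bcKO CMs, Tgfbr3 was still the highest at 31.2 ± 2.1 per kb, above Smad7 (16.9), and Tgfb1 the lowest at 4.56. Ltbp1 moved from rank 2 to rank 6 at 12.3 per kb, where its samples overlapped those of Tgfb2 (11.1). Start and end of Smad2 and Ltbp1 differ between the deposited table and GENCODE vM21, so that their levels per kb are less certain.

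Levels of other genes were compared with those of both called genes by Pearson's r over the 6 samples, among 6796 genes whose mean reached 50. The genes most like Tgfbr3 were Mpped2 (r = 0.995), Abcc9 (r = 0.995), which encodes the sulfonylurea receptor subunit of the cardiac ATP-sensitive potassium channel, and Slc44a2 (r = 0.995), a choline transporter-like gene. Abcc9 had 2839, 2867 and 2839 normalized counts in CtrlCre and 1579, 1597 and 1739 in Cpt1bcKO samples. The genes most like Ltbp1 were Nuak1 (r = 0.996), a kinase gene, Magt1 (r = 0.994), a magnesium transporter gene, and Rsbn1l (r = 0.991). Nuak1 had 215, 203 and 225 in CtrlCre and 163, 160 and 159 in Cpt1bcKO samples. The 6 samples form 2 groups, and a gene that differs between them gives a high r with any other such gene.

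Other genes of the pathway were examined by lists of roles, which held 113 symbols, of which 95 were in the table and 74 were tested. Hjv is in the table under its older symbol, Hfe2, and was not counted. Of these 74 genes, 4 were called higher in Cpt1bcKO CMs (0.66% of all genes tested) and 0 lower, and 22 had an unadjusted P below 0.05 (13.9% of all genes tested). With 1 prior variance for all genes in limma, or without Cpt1bcKO sample 2, 0 of the 74 were called (20 and 16 at an unadjusted P below 0.05). With sex as covariate, 9 were called higher and 2 lower, the lower ones being Acta2 and Bmpr1a, against 2.14% higher and 2.91% lower of all genes in the same fit. The samples of the groups did not overlap for 27 of the 74, against 18.7% of all genes tested. The 4 genes called were Thbs1, Bgn, Col1a1 and Gdf15, of which Gdf15 met the filter on low values only through the Cpt1bcKO samples. With 10 or more required in every sample, Gdf15 was not tested and the genes called were Thbs1, Bgn, Col1a1 and Col3a1. The median log2 fold change over the 74 genes was 0.058, against −0.0013 over all genes. The lists, too, were chosen with earlier results of these data known, and their comparisons with all genes are descriptions.

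Genes for storage and activation of latent TGF-beta included 13 tested genes, of which 1 was called higher and 0 lower (0.66% and 0.906% of all genes tested). At an unadjusted P below 0.05 in limma, 6 were higher and 0 lower, against 13.9% of all genes in either direction. Thbs1, which encodes thrombospondin-1, a matrix protein that can activate latent TGF-beta, had 28, 61 and 78 normalized counts in CtrlCre and 162, 146 and 211 in Cpt1bcKO samples. All Cpt1bcKO samples were at least 146 and all controls at most 78. Its log2 fold change was 1.72 (SE 0.337, adjusted P = 0.0337, limma), with an adjusted P of 0.0885 without CtrlCre sample 2, 0.13 without Cpt1bcKO sample 2 and 0.112 without Cpt1bcKO sample 3. Mmp2, a matrix metalloproteinase gene, had 30, 35 and 39 in CtrlCre and 61, 92 and 61 in Cpt1bcKO samples (fitted ratio 200.1% of the control, adjusted P = 0.0937), and it was called only in fits with a further term, such as sex (adjusted P = 0.0352). The median over the 13 genes was 0.45, opposite in sign to the change of Ltbp1.

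Extracellular antagonists included 3 tested genes, of which 1 was called higher (0.66% of all genes tested). All 3 were higher at an unadjusted P below 0.05 in limma, against 13.9% of all genes in either direction. Bgn, which encodes biglycan, a small proteoglycan of the matrix that can bind TGF-beta, had 228, 298 and 361 in CtrlCre and 775, 724 and 554 in Cpt1bcKO samples. The groups did not overlap, and the log2 fold change was 1.22 (SE 0.2, adjusted P = 0.0149, limma), with an adjusted P of 0.0653 without CtrlCre sample 2 and 0.105 without Cpt1bcKO sample 2. Fstl1, a secreted follistatin-like gene, had no call (log2 fold change 0.90, adjusted P = 0.129) except in fits with a further term, such as sex (adjusted P = 0.0412). Among 4 tested ligands of the wider superfamily, 1 was called higher (0.66% of all genes tested). This was Gdf15, a stress-responsive member. Its values were 4, 0 and 6 in CtrlCre and 104, 66 and 39 in Cpt1bcKO samples, so that it was near the limit of detection in controls. It met the filter only through the Cpt1bcKO samples, so that its test had to favour a difference, and its values are given as a description. Its fitted log2 fold change of 4.32 depends on the added 1. Bmp7, a bone morphogenetic protein gene, had overlapping groups (log2 fold change 1.09, adjusted P = 0.423).

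Among 17 tested target genes of TGF-beta or bone morphogenetic proteins, 1 was called higher and 0 lower (0.66% and 0.906% of all genes tested). A positive log2 fold change was found for 13 of 17, against 5655 of all 11364 genes. In limma, 5 were higher and 3 lower at an unadjusted P below 0.05, against 13.9% of all genes in either direction. Col1a1, a collagen type I gene, had 45, 69 and 64 normalized counts in CtrlCre and 162, 141 and 141 in Cpt1bcKO samples. All Cpt1bcKO samples were above 2 times the highest control (log2 fold change 1.32, SE 0.214, adjusted P = 0.0143, limma). The adjusted P was 0.0516 without CtrlCre sample 3 and 0.0859 without Cpt1bcKO sample 2. Col3a1, a collagen type III gene, had 90, 178 and 157 in CtrlCre and 305, 300 and 282 in Cpt1bcKO samples, at the limit of the test (log2 fold change 1.11, adjusted P = 0.0511). Col3a1 was called with a pseudocount of 5 (adjusted P = 0.044, limma), with no filter (0.0355) and with 10 or more required in every sample (0.0457). It was also called with scaling to the total without mitochondrial and rRNA genes (0.0396) and with sex as covariate (0.00851). It was not called in any fit that left out 1 sample (adjusted P = 0.0565 to 0.233) or with 1 prior variance for all genes (0.163). Acta2, a smooth muscle actin gene chosen after its values were seen, was not called in the fit without covariates (log2 fold change −1.20, adjusted P = 0.0835). It was called lower with sex as covariate (adjusted P = 0.00325) and without Cpt1bcKO sample 1 (0.0217), but leaving out any other sample gave adjusted P values of 0.0596 to 0.351.

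Other receptors, other SMADs, intracellular regulators and partners gave 0 calls among 10, 5, 15 and 7 tested genes, with 2, 1, 1 and 0 at an unadjusted P below 0.05 in limma, against 1.57% and 13.9% of all genes tested. Smad5, a receptor-activated SMAD gene of the bone morphogenetic protein branch, had 263, 249 and 327 in CtrlCre and 195, 189 and 195 in Cpt1bcKO samples, without overlap of the groups (log2 fold change −0.52, adjusted P = 0.175). Bmpr1a, a type I receptor gene of the same branch, had 1262, 1420 and 1097 in CtrlCre and 928, 897 and 886 in Cpt1bcKO samples, also without overlap (log2 fold change −0.47, adjusted P = 0.161). Neither passed the test over all genes, but Bmpr1a did with sex as covariate (adjusted P = 0.047). For Rgma, a co-receptor gene, the log2 fold change was −0.94 (adjusted P = 0.192), and for Smad9 it was −1.03 (adjusted P = 0.469). For Bambi, a decoy receptor gene, it was 0.61 (adjusted P = 0.322), and for Pmepa1, which encodes a membrane protein that restrains SMAD signalling, 0.35 (adjusted P = 0.448). For the partner genes Tab2 and Crebbp it was −0.26 (adjusted P = 0.455) and −0.19 (adjusted P = 0.642).

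**Figure D3:**
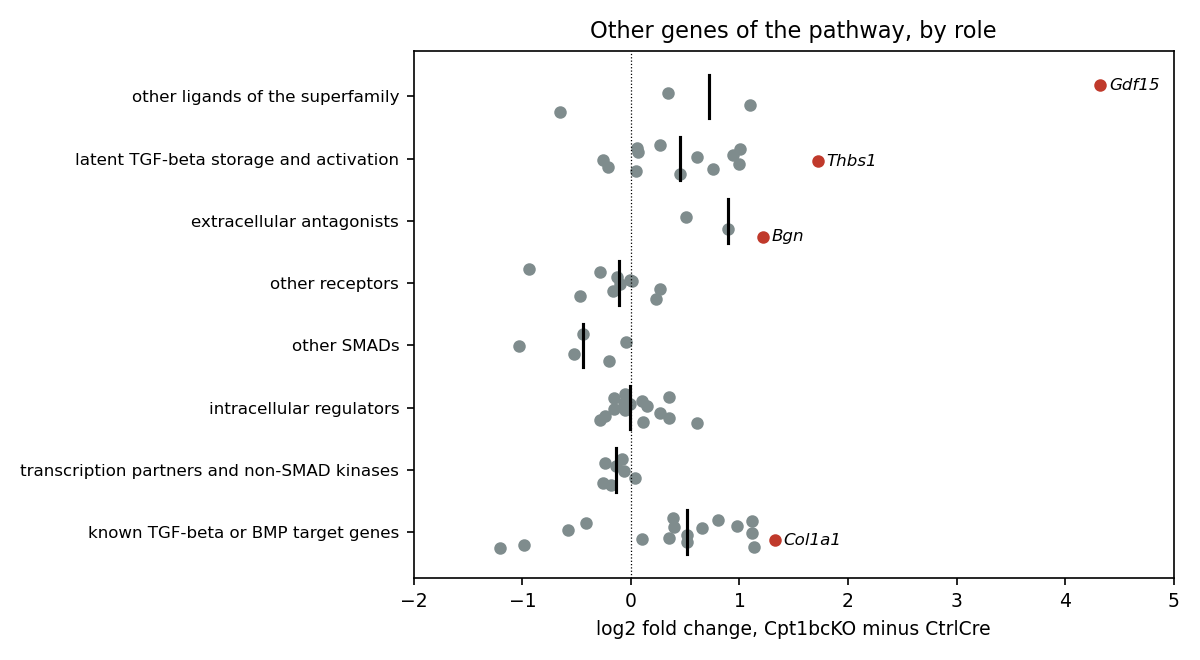
Log2 fold change, Cpt1bcKO minus CtrlCre, of 74 other genes of the pathway by role, with 1 point per gene, vertical lines at the list medians and red for an adjusted P below 0.05. The 4 called genes, Gdf15 (4.32), Thbs1 (1.72), Col1a1 (1.32) and Bgn (1.22), lie at the right. Gdf15 met the filter on low values only through the Cpt1bcKO samples, and its value depends on the added 1 and is a description.

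Markers of other cell types were summed per sample, and only the fibroblast sum did not overlap between the groups. The sum of 8 fibroblast markers was 406 to 570 normalized counts in CtrlCre and 756 to 962 in Cpt1bcKO samples, without overlap. All 7 fibroblast markers tested had a positive log2 fold change and 2 of them, Col1a1 and Lum, were called higher (0.66% of all genes tested). Col1a1 is thus in both the target list and this marker list, and without the 3 shared genes the sum of the remaining 5 markers was still 116 to 143 in CtrlCre and 201 to 275 in Cpt1bcKO samples. The defining marker Pdgfra had 67, 75 and 66 in CtrlCre and 115, 92 and 85 in Cpt1bcKO samples, and Tcf21 had 5, 5 and 5 and 14, 4 and 16. The part of the fibroblast markers in the higher Col1a1, Bgn and Thbs1 values, and in the lower Tgfbr3 and Ltbp1 values, was not tested. The sum of 7 endothelial markers was 1195, 2260 and 2485 in CtrlCre and 2482, 2502 and 2182 in Cpt1bcKO samples 1, 2 and 3, with overlap. The low end of the CtrlCre range thus came from sample 1 alone. All 7 endothelial markers had a positive log2 fold change, with a median of 0.34. Of these 7, 0 were called and 1, Tie1, had an unadjusted P below 0.05 in limma (1.57% and 13.9% of all genes tested). The sum of 6 pericyte and smooth muscle markers was 583 to 1922 and 1040 to 1507, and that of 8 macrophage and leukocyte markers 96 to 144 and 114 to 134, each with overlap. CtrlCre sample 1 had the lowest fibroblast, endothelial and pericyte sums, and without it the log2 fold changes were −0.94 for Ltbp1, 1.14 for Col1a1, 1.04 for Bgn and 1.30 for Thbs1. All 9 CM markers had a negative log2 fold change, 0 of them were called, 2 had an unadjusted P below 0.05 in limma (1.57% and 13.9% of all genes tested), and the median was −0.42. For 4 of the 9, Myh6, Actc1, Pln and Tnni3, every Cpt1bcKO sample was below every control, against 9.6% of all genes tested. The log2 fold changes of Tnni3, a troponin gene, and Pln, the phospholamban gene, were −0.996 (adjusted P = 0.136) and −0.85 (adjusted P = 0.0678), of a similar size to those of Tgfbr3 and Ltbp1. Tnni3 had 22892, 12303 and 15698 in CtrlCre and 11778, 5834 and 8102 in Cpt1bcKO samples, and Pln had 8710, 6793 and 6911 and 5521, 3492 and 3595. Ttn, the titin gene, had the highest value of the 9 CM markers in each of the 6 samples, with 229054 to 395949 in CtrlCre and 151007 to 360030 in Cpt1bcKO samples. The part of these CM markers in the lower Tgfbr3 and Ltbp1 values was not tested.

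**Figure D4:**
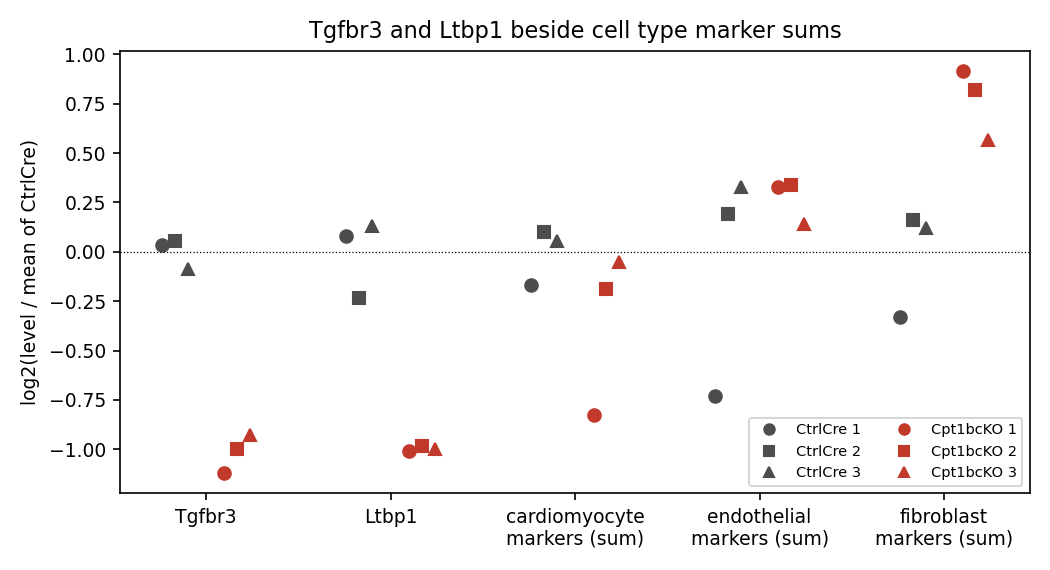
Log2 of the level in each sample relative to the mean of the CtrlCre samples, for Tgfbr3, Ltbp1 and the sums of CM, endothelial and fibroblast markers. The Cpt1bcKO samples lie at −1.12 to −0.927 for Tgfbr3 and at −1.01 to −0.985 for Ltbp1, and at 0.568 to 0.916 for the fibroblast markers, whereas the endothelial sum and the CM sum overlap between the groups.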

How the data were processed

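CMs of 3 CtrlCre and 3 Cpt1bcKO mice were analysed. Each sample was taken as 1 mouse, since a figure legend of the study gives 3 mice each for its differentially expressed genes. Per the submitters' processing notes and the study's methods, reads were trimmed with Trimmomatic (version 0.36), aligned to mm10 (GRCm38.p5) with STAR (2.5.4b), counted per gene with featureCounts (1.6.0) and normalized with DESeq2 (1.14.1), and reads on several genes were excluded. Annotation release and strand setting are not given in the sources used here. The values the authors deposited are these counts divided by size factors and rounded to whole numbers, so they were treated as a normalized score and not as raw counts. The deposited log2 fold changes, raw and adjusted p-values and group means of the authors were not used.

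Values were transformed to log2(value + 1) and genes that reached 10 or more in 3 or more samples were tested with limma (version 3.58.1, R 4.3.3; lmFit, eBayes with trend), with Benjamini–Hochberg adjustment over all 11364 genes. The steps were tested on simulated counts with the same dispersion for every gene and no sex or replicate effect. That simulation cannot show how the calls depend on the variance prior, sex or replicate. The design took this test because a count model does not suit rounded normalized values. The TGF-beta genes and all lists were chosen with earlier results of these data known. Named genes are the 10 genes, Cpt1b, in each list every gene called and the 2 with the lowest unadjusted P, the 3 genes most like each called TGF-beta gene, and genes that overlap one on the other strand. Cell type markers, Gm43422, Hfe2, mt-Rnr2 and further pathway genes were named outside this rule after their values were seen. Alternatives were pseudocounts of 0.5 and 5, other filters, scalings and thresholds, 1 prior variance for all genes, a replicate block, sex as covariate, and leaving out each sample. Exon lengths came from GENCODE vM21. Sequences came from the set of RefSeq windows used here (GRCm38.p6), in which 6 of the 10 genes had an entry. Tgfb3, Tgfbr3, Smad2 and Smad7 had no window in this set. The steps between low values gave estimates of 14900000 to 24500000 counted reads in 4 samples, and none for the other 2. Figures were drawn with matplotlib 3.10.9 (Python 3.11.15).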

Additional observations from a re-analysis of the deposited data

How the results depend on the processing

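Tgfbr3 and Ltbp1 were lower in all 15 alternative settings, with log2 fold changes of −1.06 to −0.90 and −1.10 to −0.87 and adjusted P values (limma) of 0.00155 to 0.0698 and 0.00435 to 0.098. With 1 prior variance for all genes, 0 TGF-beta genes and 0 of the other pathway genes were called (2 and 20 at an unadjusted P below 0.05), the count over all genes was 41, and Cpt1b had a log2 fold change of −2.27 with an adjusted P of 0.0563. Leaving out 1 sample at a time gave 40 to 305 calls over all genes, 0 to 2 among the TGF-beta genes and 0 to 4 among the other pathway genes, with both counts of 0 without Cpt1bcKO sample 2 (2 and 16 at an unadjusted P below 0.05). At an unadjusted P below 0.05 the counts were 1578 over all genes and 22 among the other pathway genes. Deviations of same-numbered samples correlated with r of 0.376, 0.255 and 0.0684 across genes, those of differently numbered samples with −0.329 to 0.147, and sample 3 of both groups did not correlate best with its own number. Same-numbered samples shared sex as read from Xist and Y-linked genes, but nothing in the labels pairs them. With the replicate block, 603 genes were called, including 11 other pathway genes, and with sex as covariate 574, including 11. In both, these were Acta2 and Bmpr1a, which were lower, and Bgn, Col1a1, Col1a2, Col3a1, Fbn1, Fstl1, Gdf15, Mmp2 and Thbs1, which were higher, and the called TGF-beta genes were Tgfbr3 and Ltbp1. Directions turned only for genes that did not pass the test. Scaled to the total without mitochondrial and rRNA genes, the log2 fold change of Tgfbr2 was 0.069 and that of Smad7 was 0.091. Leaving out samples gave 0.022 to 0.27 for Tgfb2, −0.52 to −0.15 for Tgfb3, −0.31 to −0.03 for Tgfbr1, −0.19 to 0.12 for Tgfbr2, −0.38 to 0.10 for Smad3 and −0.12 to 0.11 for Smad7. Why these values moved was not tested. Depth was resolved in 4 samples only, and how far it limits genes as low as Tgfb1 was not tested.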

Other observations

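Further genes of the pathway, chosen after their values were seen, differed at an unadjusted P below 0.05 but not after adjustment in the fit without covariates. Acta2 and Fbn1 were called with sex as covariate (adjusted P = 0.00325 and 0.0325, limma) and with the replicate block (0.00248 and 0.037). Acta2, which encodes smooth muscle actin, had 526, 244 and 391 normalized counts in CtrlCre and 230, 134 and 132 in Cpt1bcKO samples (log2 fold change −1.20). Ctgf, also known as Ccn2, encodes a matricellular growth factor. It had 577, 427 and 379 in CtrlCre and 202, 441 and 133 in Cpt1bcKO samples. These ranges overlapped (log2 fold change −0.99, adjusted P = 0.248, limma). Postn, which encodes the matrix protein periostin, had 25, 74 and 83 in CtrlCre and 136, 128 and 97 in Cpt1bcKO samples. Its log2 fold change was 1.13 (adjusted P = 0.22, limma), with CtrlCre sample 1 far below the other controls. Fbn1, which encodes the microfibril protein fibrillin-1, had 118, 241 and 293 in CtrlCre and 391, 379 and 397 in Cpt1bcKO samples (log2 fold change 0.94, and 0.55 without CtrlCre sample 1, adjusted P = 0.165 and 0.247, limma).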
